A study of Mus musculus with 38 samples.

Results

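The 10 genes described here encode the 5 subunits of the transcription factor NF-kB (Nfkb1, Nfkb2, Rel, Rela and Relb) and 5 of its inhibitors and regulators (Nfkbia, Nfkbib, Nfkbie, Nfkbiz and Tnfaip3). They were chosen by name and matched to the gene symbols of the RNA tables, in which each of the 10 was listed once among 23700 entries. All 10 were among the 11121 genes that passed the filter on low values, and each was at 18.0 FPKM or more in every library. The measurements are from mouse CD4 T helper cells grown as Th1 or Th2 cells.

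NF-kB subunits bind DNA as dimers. In a resting T cell the dimers are held in the cytoplasm by IkB proteins. A signal from the T cell receptor is passed on to the IKK kinase, which marks the IkB proteins for destruction and so frees the dimers. Several inhibitor genes are themselves switched on by NF-kB, which limits the response. NF-kB supports survival, cytokine production and helper cell differentiation in T cells.

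Naive CD4 T cells were sorted from C57BL/6J mice and grown in vitro. The Th2 libraries were STAT6 KO with the GATA3 vector, WT with the GATA3 vector, STAT6 KO with the control vector, WT with the control vector, STAT6 KO without vector and WT without vector. The Th1 libraries were STAT4 KO with the T-bet vector, WT with the T-bet vector, STAT4 KO with the control vector, WT with the control vector, T-bet KO without vector, STAT4 KO without vector and WT without vector. The knockout alleles are labelled STAT4tm1, Stat6tm1 and Tbettm1; the sources used here do not give the animals' age or how many were pooled. STAT4 is activated by IL-12 in Th1 cells and STAT6 by IL-4 in Th2 cells, and T-bet and GATA3 are the lineage-defining factors. The 6 libraries without a vector came from cells at day 7, restimulated through CD3 and CD28 for 2 h, with IL-12 for Th1 and IL-4 for Th2. The 8 libraries of cells transduced with a retroviral vector are labelled day 5 in 1 field. Another field gives 7 days and the same restimulation for those of Th1 cells and no restimulation step for those of Th2 cells. The transduction protocol of both ends with 3 days in IL-2 and IL-12 or IL-4, away from receptor stimulation. WT Th1 without vector had 2 libraries and each of the other 12 groups had 1.

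Libraries held an estimated 21.4 to 38.1 × 10⁶ fragments in genes. T-bet KO and WT Th1 replicate 2 lay away from the rest: over genes they correlated at r = 0.976 with each other and at 0.676 to 0.801 with the other 12 libraries, which correlated at 0.856 to 0.99 among themselves. Results are therefore also given with a term for this pair, called the batch term below, although no label names a batch and the pair was picked from these correlations. Leaving out WT Th1 replicate 2 gave the same estimates as this term, except for T-bet KO. The batch term and that fit are thus not separate checks of a change. Tbx21, the T-bet gene, was at 4.18 FPKM in T-bet KO, against 88.4 and 153 in WT Th1. Stat4 was at 6.71 to 17.5 FPKM in the 3 STAT4 KO libraries, against 37.1 to 60.8 in their WT counterparts, but WT Th1 replicate 2 had 15.1. Stat6 was at 34.6 FPKM in STAT6 KO and 35.6 in WT without vector, 36.1 and 65.9 with the control vector, and 23.3 and 48.0 with the GATA3 vector, so that it was near WT in the first pair; the part each allele lacks is not stated. Tbx21 was at 137 to 245 FPKM with the T-bet vector, against 35.1 to 61.0 with the control vector, and Gata3 at 377 to 589 with the GATA3 vector, against 29.7 to 95.7. In STAT6 KO Th2 cells Tbx21 was at 43.7 FPKM without vector, 40.4 with the control vector and 24.7 with the GATA3 vector, against 3.61, 2.43 and 2.08 in WT Th2. Gata3 was at 14.3 FPKM in STAT6 KO Th2 without vector, against 62.1 in WT. Th2 thus names the culture of these knockout cells and not their identity. The summed level of 6 T helper markers was 692 to 1325 FPKM. That of 4 B cell markers was at most 1.46, of 3 NK markers at most 0.194, of 2 CD8 markers at most 5.65 and of 5 myeloid markers at most 8.63 FPKM. Among 4 mast cell and basophil markers the sum was at most 68.8 FPKM, in WT Th2 with the GATA3 vector, mostly from Mcpt8 at 59.2, and Fcer1a and Ms4a2 stayed under 1 FPKM in every library.

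RefSeq promoter entries (build GRCm38.p6) were found for 7 of the 10 genes, with 10 start sites; Nfkb1, Relb and Nfkbiz had none. The 250 bases before each start were searched on both strands for the kB consensus, the recognition sequence of NF-kB. Matches were found for 5 genes: Nfkb2, Rel, Nfkbia, Nfkbie and Tnfaip3. The share of all 32851 promoters with a match was 3.90%. Those of Nfkbie and Tnfaip3 are printed because Nfkbie fell in Th2 cells and Tnfaip3 rose in vector cultures below, and those of Nfkbia and Nfkb2 because they rose in vector cultures in the fit with the batch term. Nfkbib rose in vector cultures in that fit too, but its promoter entry had no kB match and is not printed. Capitals mark the kB matches, overlapping ones merged. A match is a description of letters and not a shown binding site.
Nfkbie promoter, chr17:45555450-45555699, plus strand: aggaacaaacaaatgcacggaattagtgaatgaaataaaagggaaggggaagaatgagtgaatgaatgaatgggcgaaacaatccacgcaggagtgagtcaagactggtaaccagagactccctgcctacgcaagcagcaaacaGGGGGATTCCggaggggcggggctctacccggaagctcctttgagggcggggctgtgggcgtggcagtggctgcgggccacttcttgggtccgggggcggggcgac
Tnfaip3 promoter, chr10:19015411-19015660, minus strand: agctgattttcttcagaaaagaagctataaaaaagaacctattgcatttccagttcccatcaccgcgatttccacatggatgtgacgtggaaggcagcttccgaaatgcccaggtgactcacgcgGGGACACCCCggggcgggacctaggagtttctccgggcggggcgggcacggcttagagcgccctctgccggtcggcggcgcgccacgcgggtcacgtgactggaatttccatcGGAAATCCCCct
Nfkbia promoter, chr12:55492648-55492897, minus strand: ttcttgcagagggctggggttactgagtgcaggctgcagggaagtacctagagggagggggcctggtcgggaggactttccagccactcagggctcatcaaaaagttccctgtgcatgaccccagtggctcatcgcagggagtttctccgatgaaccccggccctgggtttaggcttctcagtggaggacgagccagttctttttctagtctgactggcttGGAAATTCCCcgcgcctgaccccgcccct
Nfkb2 promoter, chr19:46304487-46304736, plus strand: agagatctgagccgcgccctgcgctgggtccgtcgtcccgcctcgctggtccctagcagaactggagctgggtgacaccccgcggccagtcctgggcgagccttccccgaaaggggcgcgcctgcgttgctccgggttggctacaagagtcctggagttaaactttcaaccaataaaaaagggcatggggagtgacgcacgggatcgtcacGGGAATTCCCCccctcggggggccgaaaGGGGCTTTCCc
Nfkbie had 1 match, 106 to 97 bases before the start. Tnfaip3 had 2, at 125 to 116 and 12 to 3 bases. Nfkbia had 1, at 29 to 20 bases. Nfkb2 had 3, of which 2 overlap between 39 and 29 bases and 1 lies 11 to 2 bases before this start, the first of its 3. The STAT motif TTCNNNGAA occurred before the first Nfkb2 start and before no other of the 10 starts, against 7.02% of all promoters. The STAT6 motif TTCNNNNGAA occurred before the first Tnfaip3 start only, against 5.85%.

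All 10 genes were well expressed. FPKM, fragments normalised for transcript length and for the mapped fragments of the library, allows levels to be compared between genes. The median level over the 14 libraries was 321 FPKM for Nfkb1, 188 for Nfkbia, 177 for Nfkb2 and 147 for Rela. It was 83.5 for Rel, 63.2 for Tnfaip3, 51.4 for Relb, 50.5 for Nfkbiz, 44.4 for Nfkbib and 40.5 for Nfkbie. These medians exceeded those of 85.9% to 99.0% of the genes tested. An estimated 1399 to 65127 fragments lay behind each of the 140 values, and the counting interval around them was 0.784% to 5.35% of the value on either side. The gap between the WT Th1 replicates ran from 0.08 (Tnfaip3) to 1.24 (Nfkbib) in absolute log2 units. Nearly all groups had 1 library, and no label ties libraries to different animals or cultures. The p-values below thus measure only the spread of these libraries around an additive fit, part of which may be technical. Most of that spread is how far libraries of different groups depart from additive effects, since only WT Th1 had a replicate. With the batch term the WT Th1 replicates no longer inform it, so it then holds no variation between replicates. In bulk RNA, fewer cells of a type and less RNA per cell cannot be told apart.

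**Figure D1:**
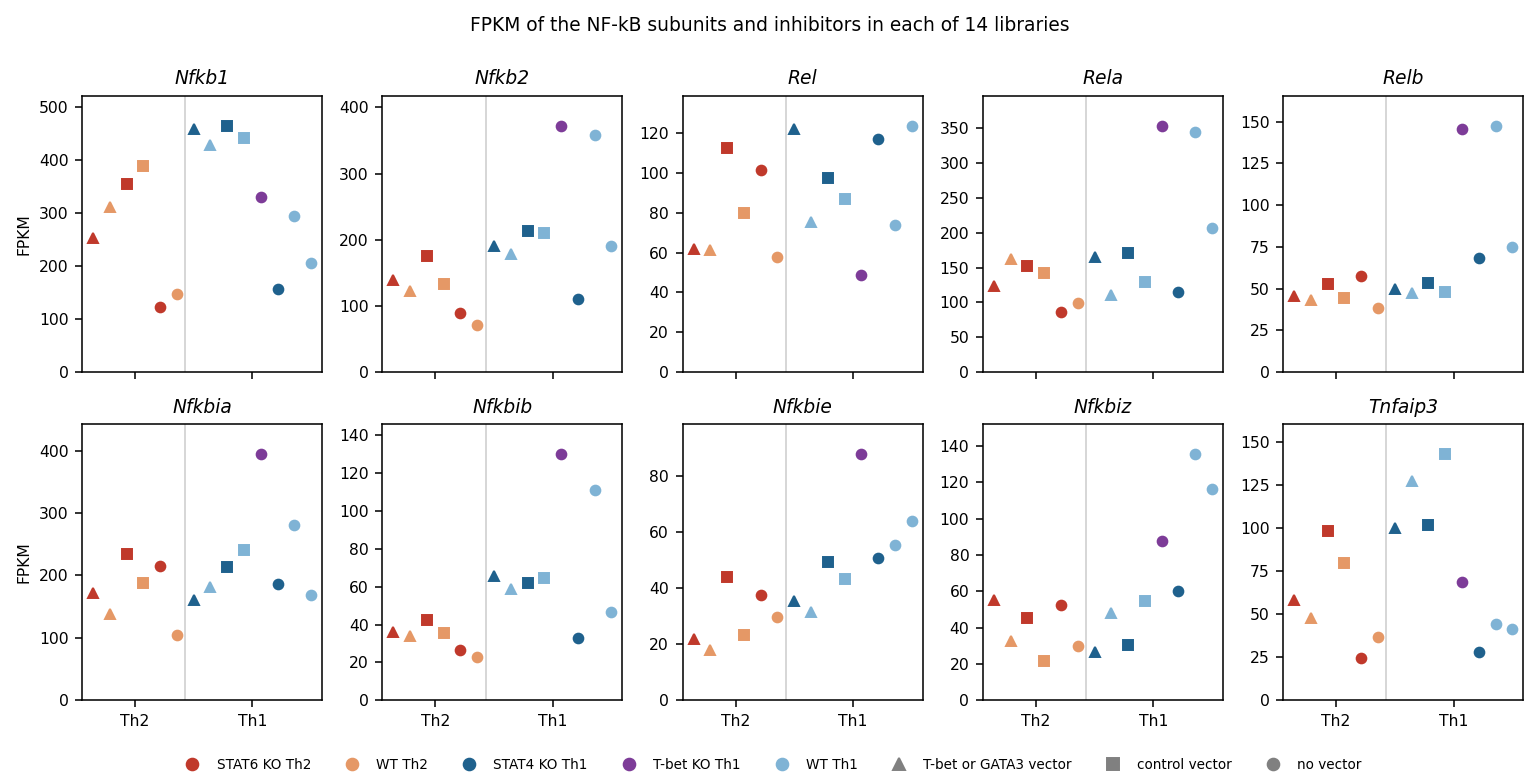
FPKM of each gene (y axis, linear, from 0) in the 14 libraries (x axis, Th2 left of the grey line and Th1 right of it), 1 point per library with colour for genotype and shape for vector. Nfkb1 and Tnfaip3 reached 465 and 143 FPKM in vector libraries, and 7 genes (Nfkb2, Rela, Relb, Nfkbia, Nfkbib, Nfkbie and Nfkbiz) were highest in T-bet KO or WT Th1 replicate 2, all without a vector.

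Among the subunits, Nfkb1, which encodes the precursor of a subunit without an activation domain of its own, was at 122 to 206 FPKM in 4 libraries without vector. In the other 2 without vector, T-bet KO and WT Th1 replicate 2, it was at 330.3 and 294. The 8 vector libraries had 254 to 465 FPKM. Rela, the subunit with the main activation domain of the classical dimer, was highest in T-bet KO (354) and WT Th1 replicate 2 (345) and was at 86.7 to 207 FPKM in the other 12 libraries. Relb, the partner of the processed Nfkb2 product in the alternative pathway, had 145 and 148 FPKM in T-bet KO and WT Th1 replicate 2 and 38.2 to 74.8 in the other 12. Nfkb2 had 373 and 358 FPKM in that pair and 71.5 to 214 elsewhere. Rel, the c-Rel subunit prominent in lymphocytes, ran the other way in T-bet KO, where it had its lowest value, 48.7 FPKM, and in WT Th1 replicate 2, at 74.1, against 124 in WT Th1 replicate 1. No neighbouring step in the order of libraries exceeded the gap between the WT Th1 replicates for any of the 5 subunits, Nfkbia or Nfkbib, and 3 steps did so for Nfkbie, 4 for Nfkbiz and 10 for Tnfaip3, whose replicates lay only 0.08 log2 units apart.

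The make-up of the subunit RNA differed between cultures. Nfkb1 made up 40.6% to 51.0% of the summed FPKM of the 5 subunit genes in the 8 vector libraries, against 24.1% to 35.5% in the 6 without vector. The ratio of Nfkb1 to Rela was 1.92 to 3.87 with a vector, against 0.852 to 1.48 without, so the ranges did not overlap. Relb made up 5.05% to 7.30% with a vector and 9.23% to 12.5% without. Rel made up 3.89% in T-bet KO and 6.08% in WT Th1 replicate 2, and 8.73% to 22.3% in the other 12 libraries. The summed level of the 3 classical IkB genes (Nfkbia, Nfkbib and Nfkbie) per subunit FPKM was highest in STAT6 KO Th2 without vector, at 0.611, and lowest in STAT4 KO Th1 with the T-bet vector, at 0.266. These shares are descriptions and were not tested.

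**Figure D2:**
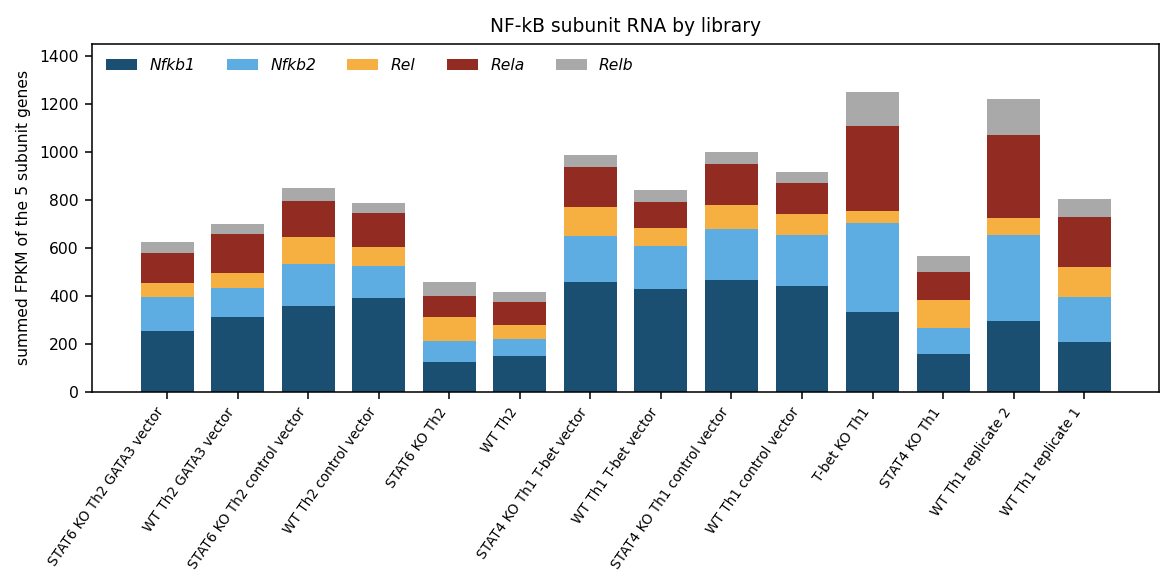
Summed FPKM of the 5 NF-kB subunit genes (y axis, linear, from 0) as stacked bars, 1 bar per library, Th2 libraries left of Th1 libraries. The Nfkb1 segment is 40.6% to 51.0% of the bar in vector libraries and 24.1% to 35.5% in those without, and the T-bet KO and WT Th1 replicate 2 bars are the tallest, at 1251 and 1218 FPKM.

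Th2 cells were compared with Th1 cells to ask how the lineages differ. Nfkbiz and Nfkbie were lower in Th2 cells. Nfkbiz encodes a nuclear IkB protein that acts with NF-kB as a coactivator at a subset of genes. It was at 30.0 FPKM in WT Th2 without vector, against 116 and 136 in the WT Th1 libraries, and at 21.7 in WT Th2 with the control vector, against 54.9 in WT Th1 with it. Both WT Th2 libraries thus lay below every WT Th1 library of the same culture. Over all genotypes and vectors Nfkbiz ran from 21.7 to 55.1 FPKM in 6 Th2 libraries (median 39.0), against 26.6 to 136 in 8 Th1 libraries (median 57.5), and these ranges overlap. Its fitted change was -1.69 ± 0.22 on the log2(FPKM + 1) scale (SE), with a Benjamini-Hochberg adjusted p of 0.00717 by limma.

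Nfkbie encodes IkB-epsilon, a cytoplasmic IkB protein. It had 29.7 FPKM in WT Th2, against 63.9 and 55.3 in WT Th1, and 23.1 with the control vector in WT Th2, against 43.2 in WT Th1. Over all libraries it ran from 18.0 to 44.0 FPKM (median 26.4) in Th2 cells and from 31.4 to 87.8 (median 50.1) in Th1 cells. In the fit its change was -0.88 ± 0.19 (limma, adjusted p = 0.0469). This call sat at the threshold: it was lost in 11 of 14 fits that left out 1 library, with adjusted p up to 0.206 without WT Th2 without vector, and in 5 of 7 other settings. The fits without WT Th1 replicate 2, T-bet KO or STAT6 KO Th2 with the control vector kept it. For Nfkbiz, leaving out WT Th2 without vector gave -1.52 with an adjusted p of 0.0622, and each of the other 13 such fits kept the call.

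The other 8 genes did not pass, although the fitted change was below 0 for all 10, with a median of -0.72, against -0.04 over all 11121 genes. So 2 of 10 fell and 0 rose, where 2.36% of all genes fell and 0.845% rose. The largest of the remaining estimates were -1.27 ± 0.37 for Nfkb2 (limma, adjusted p = 0.107) and -1.20 ± 0.37 for Nfkbib (0.12). With the batch term 3 genes fell, where 5.26% of all genes did: Nfkbiz (-1.57 ± 0.19, adjusted p = 0.0109), Nfkbie (-0.88 ± 0.18, 0.0422) and Nfkbib (-0.82 ± 0.14, 0.0237). Nfkb2 had -0.92 ± 0.22 there (adjusted p = 0.0555). Nfkbib, which encodes the IkB protein IkB-beta, had 22.8 FPKM in WT Th2, against 46.4 and 111 in WT Th1, and 35.7 in WT Th2 with the control vector, against 64.6 in WT Th1 with it. The 6 Th2 libraries had at most 42.4 FPKM of Nfkbib, and of the 8 Th1 libraries only STAT4 KO without vector, at 32.9, lay below that. In both matched WT pairs, with WT Th1 replicate 1 for the pair without vector, 9 of the 10 genes were lower in Th2 cells, as were 33.6% of all genes, and Rela was lower in 1 pair and higher in the other. At 1.5-fold, 4 genes (Nfkb2, Nfkbib, Nfkbie and Nfkbiz) were lower in both pairs, as were 5.98% of all genes.

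The summed level of 12 immediate early genes, which follow restimulation, was 1933 FPKM in WT Th2 without vector, against 3674 and 5622 in WT Th1, and all 12 were lower in WT Th2. With the control vector the sum was 1968 in WT Th2 and 1803 in WT Th1, with Nr4a1 alone at 859 and 619.7, but 8 of the 12 were lower in WT Th2. The fitted changes of the 12 had a median of -0.64 in Th2 over Th1 cells (-0.45 with the batch term), and 2 fell. In the control vector pair Nfkbiz, Nfkbie, Nfkbib and Nfkb2 were at 0.395, 0.535, 0.552 and 0.632 of the WT Th1 level. The part of the immediate early response in these differences was not tested.

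**Figure D3:**
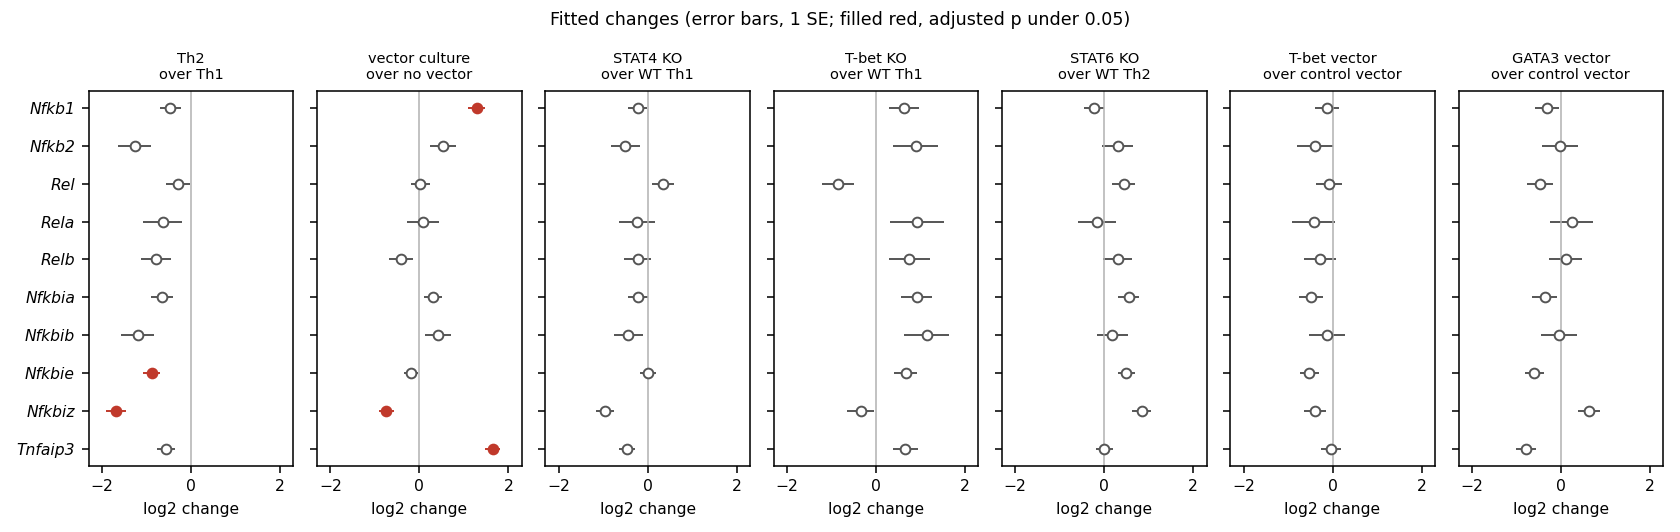
Fitted log2(FPKM + 1) changes (x axis, in the direction each panel's title gives) of the 10 genes (y axis) in 7 comparisons, with 1 SE as error bars and filled red points at a limma adjusted p under 0.05. Nfkbiz (-1.69) and Nfkbie (-0.88) are filled for Th2 over Th1, Nfkb1 (1.29), Tnfaip3 (1.65) and Nfkbiz (-0.74) for vector culture over no vector, and no point is filled in the other 5 panels.

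STAT6 KO Th2 cells were compared with WT Th2 cells to ask what depends on STAT6. Nfkbiz was higher in STAT6 KO cells in every culture. It was at 52.6 FPKM in STAT6 KO and 30.0 in WT without vector, 45.2 and 21.7 with the control vector, and 55.1 and 32.9 with the GATA3 vector. The 3 STAT6 KO values lay above all 3 WT values. Nfkbiz was the only one of the 10 genes at least 1.5-fold higher in all 3 pairs, as were 2.7% of all genes, with ratios of 1.68 to 2.08. Its fitted change was 0.85 ± 0.21 and did not pass over all genes (limma, adjusted p = 0.117; 0.0581 with the batch term). It passed in 1 of 14 fits that left out 1 library, that without WT Th1 replicate 2 (limma, adjusted p = 0.0339). Among 8 other settings it passed in 1, the fit on Th2 libraries alone (0.0453). Both gave the same estimate of 0.85. Over the 14 fits that left out 1 library the estimate ran from 0.64 to 1.01, and the adjusted p reached 0.52.

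None of the 10 genes was called in STAT6 KO cells, where limma called 0.962% of all genes. With the batch term 2.71% of all genes and again 0 of the 10 were called. Without that term, 2 of the 10 and 1223 of all 11121 genes had an unadjusted limma p under 0.05. Still, 7 genes (Nfkb2, Rel, Relb, Nfkbia, Nfkbib, Nfkbie and Nfkbiz) were higher in STAT6 KO cells in all 3 pairs, where 28.8% of all genes were. Nfkb1 was lower in all 3, as were 17.4% of all genes, at 0.814 to 0.913 of the WT level. Nfkbia, which encodes IkB-alpha, the rapidly resynthesised inhibitor of the classical dimer, had 215 FPKM in STAT6 KO and 105 in WT without vector, 235 and 188 with the control vector, and 171 and 139 with the GATA3 vector. In the fit this came to 0.55 ± 0.24 (limma, adjusted p = 0.463). Nfkbie had 37.7 FPKM in STAT6 KO and 29.7 in WT without vector, 44.0 and 23.1 with the control vector, and 21.9 and 18.0 with the GATA3 vector, a fitted change of 0.50 ± 0.18 (adjusted p = 0.328). The gap between genotypes varied between cultures for both genes. The immediate early sum was 2394 FPKM in STAT6 KO and 1933 in WT without vector, 2427 and 1968 with the control vector, and 2080 and 2044 with the GATA3 vector, and 10, 8 and 7 of the 12 genes were higher in STAT6 KO in these pairs. Their fitted median was 0.14, and their part in these values was not tested.

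**Figure D4:**
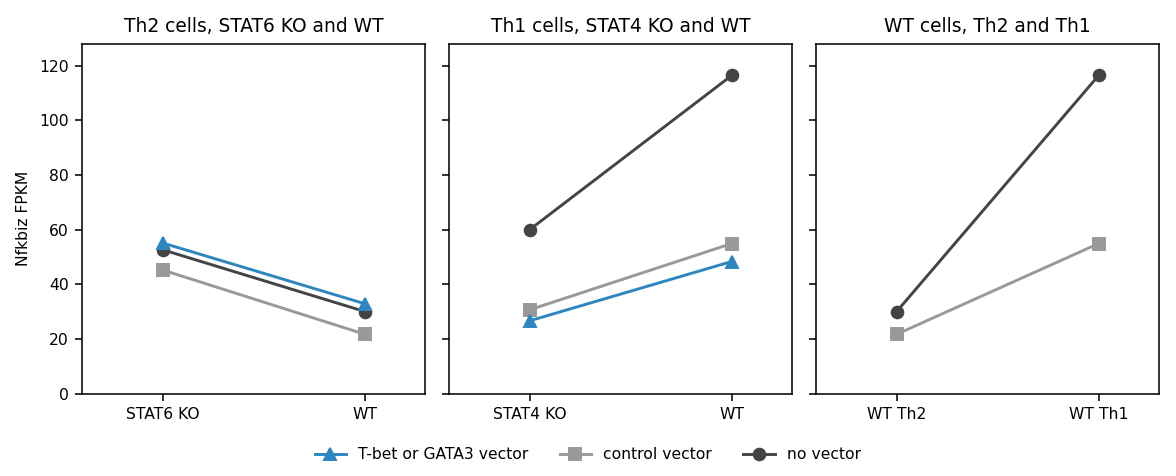
Nfkbiz level (y axis, FPKM, linear, from 0) in matched single libraries joined by lines, with the culture given by shape and colour and WT Th1 replicate 1 as WT Th1 without vector. STAT6 KO Th2 libraries (45.2 to 55.1) lie above WT Th2 (21.7 to 32.9), STAT4 KO Th1 libraries (26.6 to 60.0) each lie below their WT Th1 counterpart (48.3 to 116), and WT Th2 lies below WT Th1 in both cultures.

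STAT4 KO Th1 cells were compared with WT Th1 cells in the same way. Here Nfkbiz was lower in the knockout in every culture. It was at 60.0 FPKM in STAT4 KO without vector, against 116 and 136 in WT. Control vector cells had 30.7 in STAT4 KO and 54.9 in WT, and T-bet vector cells had 26.6 and 48.3. Each STAT4 KO library lay below every WT Th1 library of its culture, at 0.515 to 0.559 of the matched level. Nfkbiz was the only one of the 10 genes at least 1.5-fold lower in all 3 pairs, as were 3.1% of all genes. The fitted change was -0.96 ± 0.20 and did not pass (limma, adjusted p = 0.0801; -0.87 ± 0.17 and 0.0506 with the batch term). Without WT Th1 replicate 2 it passed (-0.87, adjusted p = 0.0354), and with Th1 libraries alone it did not (-0.92, 0.239). The adjusted p ran from 0.0354 to 0.452 over all alternatives.

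Tnfaip3 was lower in STAT4 KO cells in all 3 pairs too, as were 22.6% of all genes. It encodes an enzyme that edits ubiquitin chains on signalling proteins above IKK and so dampens NF-kB. Without vector it had 28.3 FPKM in STAT4 KO, against 41.6 and 44.1 in WT. Control vector cells had 102 in STAT4 KO and 143 in WT, and T-bet vector cells had 100.1 and 127. The STAT4 KO value was below WT in each culture, while the vector cultures were above the others in both genotypes. The fitted change was -0.47 ± 0.19 (limma, adjusted p = 0.272), and that of Nfkb2 was -0.50 ± 0.34 (0.483). Of the 10 genes 0 were called, where limma called 0.728% of all genes. At an unadjusted limma p under 0.05 there were 2 of the 10, and 1744 of all 11121 genes. The batch term also gave 0 calls among the 10, where 3.49% of all genes were called. The immediate early sum was 3864 FPKM in STAT4 KO, against 3674 and 5622 in WT without vector. It was 1850 in STAT4 KO and 1803 in WT for control vector cells, and 2247 and 1735 for T-bet vector cells. The 3 sums were above those of the matched WT libraries, yet 9 of the 12 genes were lower in STAT4 KO without vector (replicate 1 as WT) and with the control vector, and 6 with the T-bet vector. The fitted median of the 12 was -0.43 (-0.28 with the batch term), 0 were called by limma, and their part in the Nfkbiz values was not tested.

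T-bet KO Th1 cells were compared with both WT Th1 libraries. The T-bet KO library had 7 genes above both WT libraries (Nfkb1, Nfkb2, Rela, Nfkbia, Nfkbib, Nfkbie and Tnfaip3), where 27.9% of all genes lay above both, and Rel and Nfkbiz below both, where 32.5% did. Relb lay between them. Nfkbie had 87.8 FPKM in T-bet KO, its highest value, against 63.9 and 55.3 in WT. Nfkbiz had 87.7 against 116 and 136, and Tnfaip3 68.5 against 41.6 and 44.1. The gap to WT Th1 replicate 2, the library T-bet KO resembled, was small for Nfkb2 (ratio 1.04), Rela (1.03) and Relb (0.984), and larger for Nfkbie (1.59), Tnfaip3 (1.55), Nfkbia (1.41), Rel (0.657) and Nfkbiz (0.646).

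The fit called 0 of 10 genes in T-bet KO and 0.018% of all genes. An unadjusted limma p under 0.05 was found for 5 of the 10, and for 1617 of all 11121 genes. The 3 largest estimates were 1.14 ± 0.50 for Nfkbib (limma, adjusted p = 0.337), 0.92 ± 0.35 for Nfkbia (0.337) and 0.91 ± 0.60 for Rela (0.39). With the batch term, which leaves a comparison of 1 library with 1, they were 0.23, 0.49 and 0.04, and 0 of the 10 genes were called, where 0.881% of all genes were. Without WT Th1 replicate 2, T-bet KO was the only library that stood apart, and 7 of the 10 genes were called beside 5154 of all genes. T-bet loss and whatever set that pair apart cannot be told apart in that fit. With 1 T-bet KO library, the difference has no replicate check of its own.

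Vector cultures differed from cultures without a vector in transduction and, as far as the labels tell, in day and stimulation, and these cannot be told apart. Nfkb1 and Tnfaip3 were higher in them and Nfkbiz lower. Nfkb1 had 442 FPKM in WT Th1 with the control vector, against 206 and 294 without vector, 465 against 156 in STAT4 KO Th1, 389 against 147 in WT Th2 and 355 against 122 in STAT6 KO Th2. Each control vector library was above every library of its genotype without vector, by 2.15 to 2.98 times over the 4 matched pairs. The fitted change was 1.29 ± 0.19 (limma, adjusted p = 0.0021).

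Tnfaip3 had 143 FPKM in WT Th1 with the control vector, against 41.6 and 44.1 without, 102 against 28.3 in STAT4 KO Th1, 79.7 against 36.7 in WT Th2 and 98.2 against 24.6 in STAT6 KO Th2. It was 2.17 to 4.00 times as high with the vector in the 4 pairs, and the groups did not overlap for any genotype. Its fitted change was 1.65 ± 0.16 (limma, adjusted p = 5.24e-04). Nfkb1 and Tnfaip3 were the 2 genes of the 10 at least 1.5-fold higher in all 4 pairs, as were 11.3% of all genes. Both calls held in all 14 fits that left out 1 library and in 7 other settings.

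Nfkbiz, by contrast, had 54.9 FPKM in WT Th1 with the control vector, against 116 and 136 without, 30.7 against 60.0 in STAT4 KO Th1, 21.7 against 30.0 in WT Th2 and 45.2 against 52.6 in STAT6 KO Th2. It was lower with the vector in all 4 pairs, where 18.6% of all genes were, and the gap was wider in Th1 (ratios 0.471 and 0.511) than in Th2 pairs (0.723 and 0.859). That difference between lineages did not pass its own test (interaction 0.75 ± 0.24, limma, adjusted p = 0.695, unadjusted p = 0.0163). The fitted change was -0.74 ± 0.18 (limma, adjusted p = 0.014). It was not called without WT Th1 with the control vector (-0.58, 0.0696) or STAT4 KO Th1 with the control vector (-0.67, 0.065).

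In all 4 pairs 5 genes were higher with the vector (Nfkb1, Nfkb2, Nfkbia, Nfkbib and Tnfaip3), as were 40.1% of all genes. By limma, 2 of the 10 genes rose and 1 fell in vector cultures, where 23.4% of all genes rose and 8.15% fell, so that calls were common here. The median over all genes was 0.16 (log2) above 0 in this comparison, and 0.01 after upper-quartile or quantile scaling; the 3 calls kept their direction under both. With the batch term 5 genes rose, where 35.8% of all did, and 1 fell, where 15.2% did. Nfkb2 (0.74 ± 0.17, limma, adjusted p = 0.0109), Nfkbia (0.42 ± 0.14, 0.0438) and Nfkbib (0.66 ± 0.11, 0.00273) were added. Nfkb2 had 211 FPKM in WT Th1 with the control vector, against 191 and 358 without, 214 against 110.4 in STAT4 KO Th1, 133 against 71.5 in WT Th2 and 175 against 88.8 in STAT6 KO Th2. Only WT Th1 replicate 2 exceeded its vector counterpart. The immediate early sum was 1803 FPKM in WT Th1 with the control vector, against 3674 and 5622 without, and 1850 against 3864 in STAT4 KO Th1. In Th2 cells it was 1968 with the control vector and 1933 without in WT, and 2427 and 2394 in STAT6 KO. With the vector 10 of the 12 genes were lower in each Th1 pair, and 5 and 4 in the WT and STAT6 KO Th2 pairs. In WT Th2 Nr4a1 was at 859 FPKM with the vector and 653 without, while Egr3 was at 110.4 and 259. The fitted median of the 12 was -0.53 (-0.46 with the batch term), with 1 called higher and 3 lower, and their part in the Nfkbiz values was not tested. Nfkb1 and Tnfaip3 were at least 2.17 times as high with the vector in the 2 Th2 pairs too, and the part of the 12 genes in these values was not tested either.

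Ectopic T-bet or GATA3 was compared with the control vector. In T-bet vector cells limma called 0 of the 10 genes and 0% of all genes, with 150 of all genes and 1 of the 10 at an unadjusted p under 0.05. All 10 estimates were below 0, from -0.52 to -0.04, against an all-gene median of -0.02, and 8 genes were lower in both pairs, as were 36.2% of all genes. Nfkbie had 31.4 FPKM with the T-bet vector and 43.2 with the control vector in WT cells, and 35.3 and 49.3 in STAT4 KO cells, a fitted change of -0.52 ± 0.21 (limma, adjusted p = 1). Nfkbia had 182 and 241 in WT and 161 and 213 in STAT4 KO cells (-0.49 ± 0.28, adjusted p = 1). Both were lower with T-bet by a like ratio in each genotype, 0.716 and 0.726 for Nfkbie and 0.755 and 0.757 for Nfkbia. Rela had -0.42 ± 0.48 (adjusted p = 1), with 111 FPKM against 129.7 in WT and 166 against 171 in STAT4 KO cells.

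In GATA3 vector cells limma called 0 of the 10, where it called 1.05% of all genes. With the batch term 2.9% of all genes and again 0 of the 10 were called. Without that term, 3 of the 10 and 953 of all 11121 genes had an unadjusted limma p under 0.05. Tnfaip3 had 48.1 FPKM with the GATA3 vector and 79.7 with the control vector in WT Th2, and 58.0 and 98.2 in STAT6 KO Th2. It was the only gene of the 10 at least 1.5-fold lower in both pairs, as were 1.35% of all genes, and both GATA3 values lay below both control values (fitted -0.79 ± 0.22, limma, adjusted p = 0.22). Nfkbie had 18.0 and 23.1 in WT and 21.9 and 44.0 in STAT6 KO cells (-0.60 ± 0.21, 0.398). Nfkbiz was the only gene higher with GATA3 in both pairs, at 32.9 and 21.7 in WT and 55.1 and 45.2 in STAT6 KO cells (0.63 ± 0.24, 0.467), where 37.4% of all genes were. Of the other genes Rela was higher in 1 pair and lower in the other, and 8 were lower in both, as were 32.2% of all genes. Of those 8, Relb had a fitted change above 0 (0.11 ± 0.37, limma, adjusted p = 0.983), because the additive fit also draws on the other libraries. The mast cell and basophil sum was highest in a GATA3 vector library, and its part in these values was not tested.

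Interactions asked whether the effect of a knockout or of the lineage depended on the vector. None of 5 interactions called any of the 10 genes by limma, with or without the batch term, and at most 1 of all genes (0.00899%) was called without that term and at most 16 (0.144%) with it. Without the batch term, only Nfkbiz of the 10 had an unadjusted limma p under 0.05, for lineage by vector culture, as did 620 of all genes. The T-bet vector left the Nfkbiz gap between STAT4 KO and WT cells at a ratio of 0.551, against 0.559 with the control vector. The GATA3 vector left the gap between STAT6 KO and WT cells at 1.68, against 2.08. The limma interactions set the gap with the T-bet or GATA3 vector against the gaps with the control vector and without vector together. They gave limma adjusted p values of 0.999 for STAT4 KO (0.18 ± 0.48) and 1 for STAT6 KO (-0.18 ± 0.49), so that the SE was larger than the estimate. The difference from the control vector alone was not tested.

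A wider list of 42 NF-kB pathway genes, all of which passed the filter, held 18 genes of IKK and the steps above it, 3 other IkB proteins, 8 other negative regulators and 13 known targets. In Th2 over Th1 cells 1 rose and 2 fell, where 0.845% of all genes rose and 2.36% fell, and no gene of IKK or above it was among them. The list median was -0.35, against -0.04 over all genes. All 3 called genes were targets. With the batch term 4 fell, where 5.26% of all genes did, and Malt1, a signalling gene above IKK, was among them (-0.76 ± 0.17, limma, adjusted p = 0.0498). Icam1, the adhesion molecule ICAM-1, had -2.61 ± 0.20 (limma, adjusted p = 6.11e-04) and the adaptor gene Traf1 -1.81 ± 0.33 (0.0237), while the costimulation gene Cd83 had 3.19 ± 0.43 (0.00795). Without the batch term Icam1 was also the only listed gene called in either STAT comparison, where 0.962% of all genes were called for STAT6 KO and 0.728% for STAT4 KO. It rose in STAT6 KO Th2 cells (1.26 ± 0.19, limma, adjusted p = 0.0198) and fell in STAT4 KO Th1 cells (-1.57 ± 0.18, 0.0114), the directions that the uncalled Nfkbiz estimates had. Icam1 had 37.2, 47.8 and 41.3 FPKM in STAT6 KO cells without vector, with the control vector and with the GATA3 vector, against 11.6, 16.9 and 24.7 in WT. It had 27.6, 36.9 and 32.2 FPKM in STAT4 KO cells without vector, with the control vector and with the T-bet vector, against 83.0 and 83.7, 126 and 89.0 in WT. In STAT4 KO cells the batch term added Malt1 (-1.06 ± 0.15, limma, adjusted p = 0.029) and Csf2 (-2.67 ± 0.47, 0.0426), where 3.49% of all genes were called, and in STAT6 KO cells it added none. For Icam1, all 3 knockout libraries lay above every WT library in Th2 cells and below every WT library in Th1 cells. The WT libraries of both STAT comparisons are also those of the lineage comparison.

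In the same list, 6 genes rose in vector cultures (Cd83, Bcl2l1, Gadd45b, Irf4, Sod2 and Icam1) and 4 fell (Tnf, Csf2, Nfkbid and Birc3), where 23.4% of all genes rose and 8.15% fell, with a median of -0.04, against 0.16 over all genes. Adding the batch term, 11 rose and 7 fell, where 35.8% and 15.2% of all genes did. Cd83 had the largest estimate, 2.54 ± 0.34 (limma, adjusted p = 0.00139), then the cytokine gene Tnf with -1.74 ± 0.28 (0.00268) and Csf2 with -1.66 ± 0.51 (0.0363). Bcl2l1, a survival gene, had 1.55 ± 0.30 (0.00564), and Nfkbid, another nuclear IkB gene, -1.07 ± 0.32 (0.0347). Bcl3, a nuclear IkB gene too, had -0.33 ± 0.29 and was not called (0.41). None of the 42 was called by limma in T-bet KO, with the T-bet vector or with the GATA3 vector, where 0.018%, 0% and 1.05% of all genes were. With the batch term 1 was, Tab2 with the GATA3 vector (0.37 ± 0.07, limma, adjusted p = 0.0429), where 2.9% of all genes were. Among the largest estimates there were -1.75 for Birc2, 1.40 for Map3k14 and -1.40 for Cyld in T-bet KO, -0.73 for Bcl3 and -0.59 for Tnip1 with the T-bet vector, and 2.56 for Csf2, -1.46 for Cd83 and -1.19 for Lta with the GATA3 vector. In the fit without the batch term, Csf2 (-2.25) and Il2 (1.39) in STAT4 KO cells, and in STAT6 KO cells Il2 (2.29), Cd83 (-1.50) and Lta (1.40), had large estimates that did not pass.

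For each of the 10 genes, the genes of most similar pattern were sought over the 12 libraries other than WT Th1 replicate 2 and T-bet KO, by Pearson r of log2(FPKM + 1). These libraries share cultures and genotypes, so the r values are descriptions. For Nfkbiz they were Cast (r = 0.970), Pon2 (0.951) and P2ry14 (0.950). For Nfkb1 they were Zfp335 (0.987), Thap4 (0.986) and Hspa14 (0.983), for Tnfaip3 Dr1 (0.961), Dcp1a (0.960) and P4ha1 (0.959), and for Nfkbie Hivep1 (0.922), Gm14718 (0.910) and Wnk1 (0.897). Rel had Ppm1a (0.928), Pdcd1 (0.926) and Lta (0.922) as its nearest. Over all 14 libraries only 3 of these 30 neighbours of the 10 genes stayed among the nearest 3, namely Hivep1 for Nfkbie, Ppm1a for Rel and Marcksl1 for Rela.

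In the build of the files, mm9, Nfkbiz lies on chromosome 16 from 55811490 to 55838754 on the minus strand and Nfkbie on chromosome 17 from 45692665 to 45700117 on the plus strand. Nfkb1 lies on chromosome 3 from 135247619 to 135354511 and Tnfaip3 on chromosome 10 from 18720717 to 18735216, both on the minus strand. All 10 are annotated as protein-coding in GENCODE vM1. Of the 10, only Nfkb2 overlaps another annotated gene, Psd on the opposite strand, by 4 of its 3289 exonic bases.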

How the data were processed

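RNA was measured in 14 libraries. Per the labels' protocols, total RNA was made into TruSeq libraries and sequenced as single reads. Per the submitters' processing notes, TopHat and Cufflinks were used with build mm9; their versions are unknown here. The deposited values are FPKM per gene, computed by the authors with Cufflinks, per the file headers. Fragments behind a value were estimated from the Cufflinks interval.

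All libraries entered 1 limma 3.58.1 fit (R 4.3.3, lmFit and eBayes with trend) on log2(FPKM + 1), whose 7 terms were lineage, culture with a vector, the T-bet and GATA3 vectors, and the knockouts of STAT4, STAT6 and T-bet, leaving 6 residual degrees of freedom (5 with the batch term). Genes needed 1 FPKM in 2 libraries, and 118 genes marked as failed were dropped. A call is a Benjamini-Hochberg adjusted p under 0.05 over all 11121 genes. The fit was also run on data simulated from its own additive model with independent errors. That run cannot show how the fit fares with effects that are not additive or with libraries that stand apart. Errors are SE of the fit. Fitted changes are named for genes called in either fit and for the 3 largest per comparison; 1 gene is not reported here. The 10 genes and the lists were chosen with earlier results of these data known. The ChIP samples are not analysed here.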

Additional observations from a re-analysis of the deposited data

How the results depend on the processing

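Of 537 values of 25 fitted changes followed across other settings, 500 kept their direction and their side of the threshold, 19 lost a call, 17 gained one and 1 reversed. That 1 was Rela with the T-bet vector, never called, at -0.99 to 0.18 when 1 library was left out, the highest without WT Th1 with the T-bet vector. For Th2 over Th1, 1 of the 10 genes was called, in place of 2, with a pseudocount of 5, with no filter, with a filter of 5 FPKM, and with upper-quartile or quantile scaling, and 0 to 4 when 1 library was left out (4 without WT Th1 replicate 2, 0 without WT Th2). For vector culture the count was 5 with quantile normalization and 6 with the batch term, in place of 3, and 2 to 6 when 1 library was left out. For STAT6 KO it was 1 with Th2 libraries only, in place of 0, and 0 to 1 when 1 library was left out. Leaving out 1 library gave 0 to 1 for STAT4 KO, 0 to 7 for T-bet KO and 0 to 0 for both vectors and for the 5 interactions, whose alternatives were chosen after seeing the data. With the batch term, calls over all genes were 760 in place of 357 for Th2 over Th1, 5671 in place of 3505 for vector culture, 388 in place of 81 for STAT4 KO, 98 in place of 2 for T-bet KO, 301 in place of 107 for STAT6 KO, 2 in place of 0 for the T-bet vector and 322 in place of 117 for the GATA3 vector. A filter of 5 FPKM gave 205, 59 and 15 for Th2 over Th1, STAT6 KO and the GATA3 vector, no filter gave 21, 56 and 321 for STAT4 KO, T-bet KO and the GATA3 vector, a pseudocount of 0.1 gave 59 for the GATA3 vector, Th2 libraries only gave 179 and 7 for STAT6 KO and the GATA3 vector, and Th1 libraries only gave 1 for STAT4 KO. Which cause lay behind these shifts was not tested. Where a group's only library was left out, its effect rests on the remaining cultures. The fit has 6 residual degrees of freedom, and counting intervals are at most 5.35% of a value. No paired analysis was possible because the RNA groups compared share fewer than 2 replicate numbers; libraries were matched by culture, as pairs of values and through the lineage and vector terms of the fit.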
